A study of Mus musculus with 25 samples.

Results

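Liver tissue away from the tumors was compared between knockout mice killed at 12 months of age and knockout mice killed at 8 months. The mice carry a deletion of Mcl-1 restricted to hepatocytes, the main epithelial cells of the liver. The members are the 7 of 25 arrays that the labels describe as the non-tumor counterpart of a tumor from an Mcl-1 ko animal, 4 from animals of 12 months (1109, 638, 702 and 793) and 3 from animals of 8 months (1347, 1287 and 934). All 7 animals therefore had both the deletion and a tumor, none had been treated, and the comparison differs by label only in age. The other arrays hold wild-type, hemizygous and knockout livers of 2 months, wild-type livers of 12 months and the 7 tumors of these same animals. Total RNA came from whole liver homogenate, so the arrays read hepatocytes together with every other liver cell. In such bulk tissue, fewer cells of a type and less RNA per cell cannot be told apart. The labels used here give neither the promoter that drives the deletion, nor the sex of the animals, nor the hour at which they were killed.

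MCL-1 is an anti-apoptotic member of the BCL-2 family. It holds back BAK and BAX, the proteins that perforate the outer mitochondrial membrane, and BH3-only proteins such as BIM, PUMA and NOXA compete for it. Without it hepatocytes die more readily, which in mouse liver is known to bring compensatory proliferation, inflammation and, later, tumors.

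Each value below is a level, the log2 spot intensity minus the 75th percentile of its array, and a difference is the mean level at 12 months minus the mean level at 8 months. Levels of a gene are always listed in the animal order 1347, 1287 and 934 at 8 months, then 1109, 638, 702 and 793 at 12 months. Levels of different genes come from different probes and are not compared with each other. The labels name separate animals, so the spread covers biological and technical variation, and the number of arrays limits the precision.

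The share of probes well above background was 64.8 ± 4.02% (SD, n = 4) at 12 months and 67.6 ± 1.63% (SD, n = 3) at 8 months, a difference of -2.78 percentage points (exact permutation test, two-sided, p = 0.314, smallest possible p 0.0286). Across 26779 genes, arrays of different age correlated at 0.931 to 0.969 and arrays of the same age at 0.937 to 0.973, ranges that overlap. All 4 measured hepatocyte markers were well above background on all 7 arrays. The 3 Y-linked genes Ddx3y, Eif2s3y and Kdm5d were well above background in animal 934 at 8 months and in animals 1109 and 702 at 12 months, and in none of the other 4 animals. By these genes each age held animals with and without Y-linked signal, though not in equal shares. In animal 934 Xist was also above background, at -5.04 against -7.81 and -8.16 in animals 1109 and 702. No slide held arrays of both ages, so a difference between ages cannot be told apart from one between slides.

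Mcl1, the deleted gene, was measured first. Its levels were 2.97, 2.74 and 1.62 at 8 months and 2.7, 2.31, 2.46 and 2.63 at 12 months. The ages overlapped and the difference was 0.08 (SE 0.31), with animal 934 lowest. Wild-type livers stood higher, at 4.21 ± 0.34 (SD, n = 2) at 2 months and 4.22 ± 0.34 (SD, n = 3) at 12 months, and all 7 knockout arrays lay below both means.

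Across all genes, none passed the test between 12 and 8 months. Of 27030 genes tested in limma, 0 were higher (0% of those tested) and 0 lower (0%) at a Benjamini-Hochberg adjusted p under 0.05, and the smallest adjusted p was 0.908. Every gene named below therefore has an adjusted p of 0.908 or more in this fit, and none is called changed. At an unadjusted p under 0.05, 1438 genes differed (5.32%), of which 276 were higher (1.02%) and 1162 were lower (4.3%). Lower genes were more frequent among the 9320 genes not well above background on all 7 arrays (6.12%) than among the 17710 that were (3.34%). The levels of the 2 ages did not overlap for 473 of 26779 complete genes that were higher at 12 months (1.77%) and for 1201 that were lower (4.48%); among the well measured genes these shares were 1.71% and 3.07%. The median difference was -0.07 over all genes and -0.02 over the 17710 genes well above background on all 7 arrays. For those well measured genes the median unadjusted 95% interval reached 0.72 to either side. At that width a smaller difference falls short even of an unadjusted p under 0.05. The width rests on the pooled fit of all groups without tumor, not on these 7 arrays alone. The adjusted test asks for more than 0.72. Dnajc27 at -1.31 (SE 0.28) and Zfp960 at -0.98 (SE 0.23) lay beyond it and did not pass. The median SD of the well measured genes between animals was 0.41 at 8 months and 0.45 at 12 months, larger than their median absolute difference of 0.24.

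The preponderance of lower genes moved with the scaling. Lower genes made up 80.8% of those at an unadjusted p under 0.05 with the 75th percentile, 65.6% with the array median, 64.3% after quantile normalization, 59.2% in the authors' deposited values and 51.7% after normexp background correction with quantile normalization. Scaling by the array median also raised the median difference of all genes by 0.19, to 0.12. Differences near these sizes are given below as values only.

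**Figure D1:**
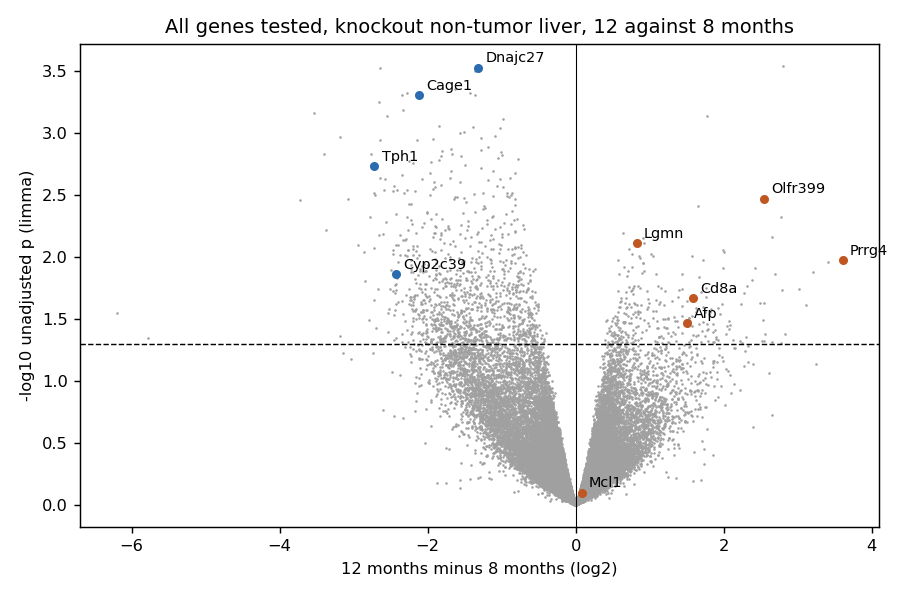
Each grey point is 1 of the 27030 genes tested, with the difference between 12 and 8 months on the horizontal axis (log2) and -log10 of limma's unadjusted p on the vertical axis, the dashed line at an unadjusted p of 0.05. Named genes are coloured orange where higher and blue where lower at 12 months, and Mcl1 lies near 0 at 0.08. More points lie beyond the line on the lower side (1162) than on the higher side (276), a split that depends on the scaling, and 0 genes passed after adjustment.

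Single genes were ranked where they had a symbol, their ages did not overlap and every array of the higher age read them well above background. Among these, the 15 with the smallest unadjusted p on the higher side were Olfr399, Zfp622, Lgmn, Kyat1, Ggn, Thap3, Dusp7, Zrsr2, Prrg4, Olfr601, Gfod2, Twf2, Hmces, Apom and Klhl28. Lgmn (chr12:102394082-102439728, GRCm38.p6) encodes legumain, a lysosomal protease abundant in macrophages. Its levels were 2.14, 2.16 and 2.08 at 8 months and 2.42, 2.67, 3.53 and 3.18 at 12 months, tight at 8 months and spread out at 12 months, with a difference of 0.82 (SE 0.27). Apom encodes the apolipoprotein M of high-density lipoprotein, which hepatocytes secrete. It stood at 6.19, 5.96 and 5.06 at 8 months and 6.26, 6.61, 7.19 and 6.55 at 12 months, where animal 934 was the low one at 8 months and the difference was 0.92 (SE 0.32). Kyat1, an enzyme that converts kynurenine to kynurenic acid, differed by 0.72 (SE 0.24). The widest difference of these 15 was that of Prrg4, 3.61 (SE 1.23), from levels of -4.95, -5.87 and -4.27 at 8 months and -1.39, -1.84, -1.73 and -0.74 at 12 months. Prrg4 was not well above background in 1 of the 3 animals of 8 months, and wild-type livers of 12 months stood at -2.23 ± 2.19 (SD, n = 3), between the means of the knockout ages.

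On the lower side the corresponding 15, by the same conditions, were Dnajc27, 5730507C01Rik, Cage1, Zfp960, Zfp345, Htr1f, Stac, Sprr2k, Tph1, Otof, Nebl, Ssb, Zfp72, Plekhn1 and Zfp781. Dnajc27 (chr12:4082569-4124140), a small GTPase with a J domain, had the smallest unadjusted p of the named genes. It stood at -3.17, -2.39 and -2.27 at 8 months and -4.25, -3.69, -4.25 and -3.51 at 12 months, with a difference of -1.31 (SE 0.28). Zfp960, a zinc finger gene, stood at 2.81, 2.93 and 2.32 at 8 months and 1.88, 1.54, 1.75 and 1.65 at 12 months, tight within both ages and -0.98 (SE 0.23) apart. Tph1, which encodes the tryptophan hydroxylase of peripheral serotonin synthesis, stood at -3.92, -3.68 and -2.6 at 8 months and -6.17, -6.12, -6.13 and -6.07 at 12 months. It was well above background in all 3 animals of 8 months and in 1 of 4 at 12 months, so that its difference of -2.72 (SE 0.72) mixes measured and background signal. Cage1 and Nebl had the same pattern of detection, 3 of 3 at 8 months and 1 of 4 at 12 months.

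Genes of cytotoxic lymphocytes leaned higher at 12 months, without passing the test. T cells and natural killer (NK) cells recognise and kill stressed, infected or transformed cells, and Cd8a marks the cytotoxic T cells. Of 21 measured T and NK genes, 16 had a difference above 0, with a median of 0.63, against 44% of all genes and a median of -0.07. At an unadjusted p under 0.05, 4 were higher (background 1.02%) and 0 lower (background 4.3%), and 0 passed after adjustment. Cd8a stood at -1.84, -2.84 and -4.11 at 8 months and -2.11, -1.56, -0.75 and -0.98 at 12 months. The 12-month animals lay between -2.11 and -0.75, animal 1347 fell inside that range and the other 2 animals of 8 months lay below it, with a difference of 1.58 (SE 0.61) and a 95% interval of 0.27 to 2.89. Gzmb, the granule protease granzyme B, stood at -2.34, -1.9 and -3.86 at 8 months and -0.79, -1.0, -1.83 and -1.79 at 12 months, where the ages did not overlap but animals 1287, 702 and 793 lay close to each other, and differed by 1.35 (SE 0.60). Cd3e, part of the T cell receptor complex, also had no overlap, at -2.44, -2.35 and -1.76 at 8 months and -0.71, -1.43, -1.02 and -0.47 at 12 months, with a difference of 1.28 (SE 0.64). Lck, the kinase that starts T cell receptor signalling, differed by 1.2 (SE 0.52) with overlap.

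Not all lymphocyte genes leaned the same way. The 5 members below 0 were Eomes, a transcription factor of NK and memory T cells, at -1.13 (SE 1.1), Cd4, the marker of helper T cells, at -0.47 (SE 0.59), the NK receptor gene Ncr1 at -0.37 (SE 0.92), Cd2 at -0.16 (SE 0.70) and the NK receptor gene Klrb1c at -0.10 (SE 0.61). Eomes was well above background in 1 of 3 animals of 8 months and 2 of 4 of 12 months. These 5 genes were picked after their values were seen. The 5 T and NK markers (Cd3d, Cd3e, Cd8a, Nkg7 and Gzmb) were all well above background on all 7 arrays, and the log2 of their summed levels was -0.44 to 0.93 at 8 months and 1.1 to 2.01 at 12 months, without overlap. The mean over the T and NK list was -2.49, -2.85 and -3.62 at 8 months and -3.03, -2.67, -2.27 and -1.88 at 12 months, lowest in animal 934 and highest in animal 793, with overlap. The list's median difference was 0.30 without animal 934, 1.0 without animal 1347 and 0.27 with normexp and quantile normalization. The same list mean was -3.87 ± 0.21 (SD, n = 2) in wild-type livers of 2 months and -3.49 ± 1.06 (SD, n = 3) in those of 12 months.

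Interferon-response genes, which cells switch on when they sense interferon from lymphocytes or infected neighbours, had differences above 0 for 20 of 22 measured members, against 44% of all genes, with a median of 0.45. Unadjusted p values were under 0.05 for 3 members, all higher: Psmb8, Cxcl10 and Stat2 (background 1.02% higher and 4.3% lower). None passed after adjustment. Psmb8, a catalytic subunit of the immunoproteasome, stood at 3.12, 2.65 and 2.49 at 8 months and 2.88, 3.91, 4.24 and 3.63 at 12 months. Animal 1109 lay among the animals of 8 months and the other 3 of 12 months above them, and the difference was 0.91 (SE 0.29). Cxcl10, a chemokine that attracts activated T cells, stood at 1.3, 1.04 and -0.70 at 8 months and 1.96, 0.68, 2.19 and 2.34 at 12 months, lowest in animal 934, with a difference of 1.25 (SE 0.52). The classical target Ifit1, chosen for mention after its value was seen, differed by 0.16 (SE 0.41). With 1 animal left out at a time, the list's median ran from 0.14 without animal 934 to 0.68 without animal 1347.

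Antigen-presenting and resident macrophage genes gave smaller differences. For MHC class II and dendritic cell genes, 11 of 13 were above 0 with a median of 0.34, led by Ciita, the master regulator of MHC class II, at 1.13 (SE 0.51), and Ccr7, the receptor that guides dendritic cells to lymph nodes, at 1.1 (SE 0.48). Macrophage genes were above 0 for 19 of 25, with a median of 0.30. Clec4f, a lectin of mouse Kupffer cells, stood at 2.54, 2.42 and 2.76 at 8 months and 3.17, 3.9, 3.12 and 3.55 at 12 months, without overlap, and differed by 0.86 (SE 0.32). Trem2, a receptor of lipid-associated macrophages, differed by -0.08 (SE 0.80). Both list medians changed sign without animal 934, and over the 7 animals left out they ran from -0.22 without animal 934 to 0.83 without animal 1347 for MHC class II and from -0.11 without animal 934 to 0.60 without animal 1347 for macrophages. The summed level of 6 Kupffer cell and macrophage markers, all well above background on every array, was 3.96 to 5.04 at 8 months and 4.75 to 5.12 at 12 months, and that of 3 measured B and plasma cell markers was -0.94 to 0.79 at 8 months and -0.24 to 1.51 at 12 months. Whether cell composition had a part in these differences was not tested.

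**Figure D2:**
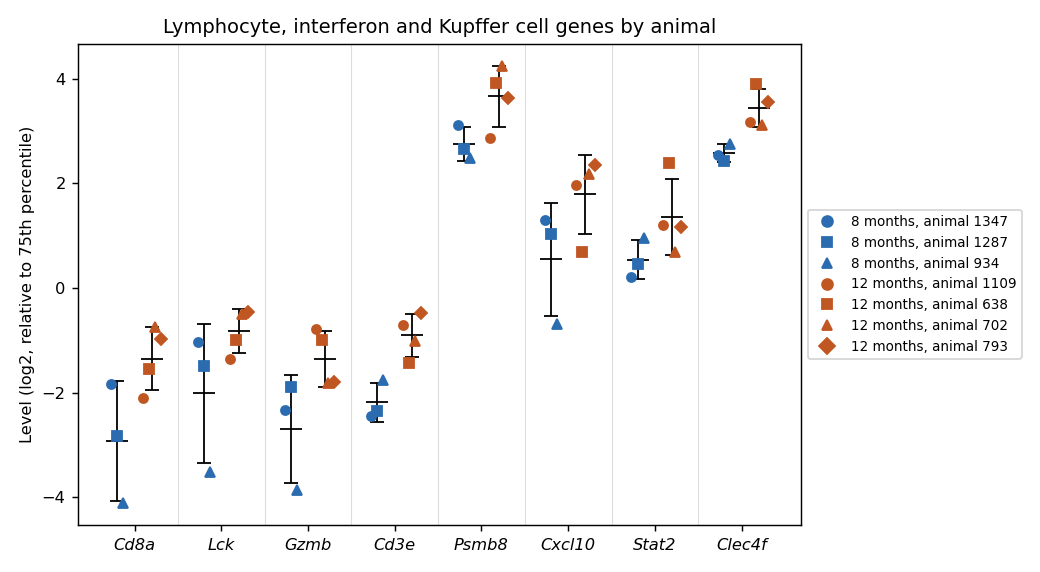
Levels of 8 genes (log2, relative to the array's 75th percentile) in the 3 animals of 8 months (blue) and the 4 of 12 months (orange), 1 symbol per animal, with the mean and SD of each age in black. Gzmb, Cd3e and Clec4f have no overlap between ages, and animal 934 is the lowest of the 7 for Cd8a, Lck, Gzmb, Psmb8 and Cxcl10.

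Genes of drug and steroid metabolism leaned lower at 12 months, again without passing the test. Cytochrome P450 enzymes oxidise drugs, steroids and fatty acids in hepatocytes, and Por supplies them with electrons. Differences were below 0 for 22 of 27 measured members of the P450 and xenobiotic list, with a median of -0.74, against 56% of all genes. At an unadjusted p under 0.05, 0 were higher (background 1.02%) and 6 lower (background 4.3%): Cyp1a1, Cyp3a44, Cyp2c54, Cyp2c39, Cyp3a11 and Por. Cyp2c39, which acts on retinoic acid and arachidonic acid, stood at 3.05, 4.52 and 5.18 at 8 months and 1.92, 3.53, -0.96 and 2.81 at 12 months, lowest in animal 702, with a difference of -2.42 (SE 0.86) and a 95% interval of -4.27 to -0.57. Cyp2c54 stood at 2.19, 2.29 and 3.75 at 8 months and 1.33, 1.09, -1.76 and 1.09 at 12 months. There the ages did not overlap, the other 3 animals of 12 months lay close to each other and animal 702 lay far below them, and the difference was -2.3 (SE 0.77). Por stood at 7.26, 7.93 and 7.64 at 8 months and 6.91, 6.62, 5.4 and 6.99 at 12 months, without overlap, at a difference of -1.13 (SE 0.42). Cyp3a11, the main mouse enzyme for many drugs, stood at 9.02, 9.16 and 8.44 at 8 months and 8.21, 8.47, 7.66 and 8.06 at 12 months, and its difference was -0.77 (SE 0.28). Cyp3a44 differed by -1.02 (SE 0.33) and the dioxin-inducible Cyp1a1 by -1.31 (SE 0.42), both without overlap. Cyp1a1 was dim, with means of -3.89 at 8 months and -5.2 at 12 months, and well above background in 3 of 4 animals of 12 months. Mouse Cyp2c and Cyp3a genes are near-identical copies in places, so a probe can read its relatives and the single names are uncertain.

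Some P450 genes spread far more between animals than between ages. Cyp2b9 stood at 6.18, 6.47 and 3.77 at 8 months and 0.74, 6.4, 4.16 and 6.45 at 12 months, high in the 4 animals without Y-linked signal and lower in the other 3, with a difference of -1.04 (SE 1.62). The list mean was 4.17, 4.41 and 3.59 at 8 months and 2.37, 4.22, 2.26 and 3.88 at 12 months, low in animals 1109 and 702. Without animal 1109 the list's median difference was -0.36, without animal 702 it was -0.39, without animal 934 it was -0.99, and with sex as a factor, a fit added after seeing the data, it was -0.40. With normexp and quantile normalization it was -0.29. Cyp2b9, Cyp3a11 and Por were picked after their values were seen.

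**Figure D3:**
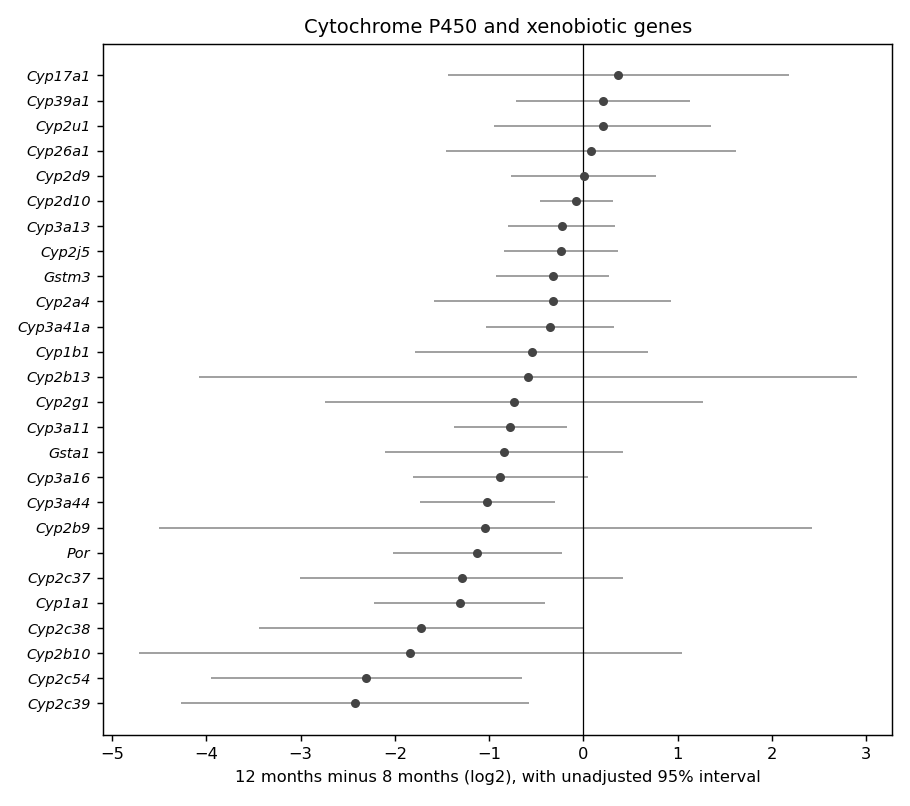
Difference between 12 and 8 months (log2, points) with its unadjusted 95% interval (lines) for 26 of the 27 measured P450 and xenobiotic genes, ordered by difference. The points run from -2.42 for Cyp2c39 to 0.37 for Cyp17a1, and the lines of Cyp2b9 and Cyp2b13 are among the longest.

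Fatty acid oxidation genes, which let hepatocytes burn fat during fasting under control of PPAR-alpha, were below 0 for 24 of 29 measured members with a median of -0.35. Acadm, the medium-chain acyl-CoA dehydrogenase, stood at 7.03, 6.56 and 6.77 at 8 months and 6.22, 6.25, 6.06 and 6.38 at 12 months. The ages did not overlap and lay close together, with a difference of -0.56 (SE 0.19). Its long-chain relative Acadl differed by -0.48 (SE 0.25), also without overlap. Angptl4, a secreted inhibitor of lipoprotein lipase, stood at 5.54, 5.22 and 7.08 at 8 months and 3.36, 4.24, 3.86 and 5.91 at 12 months, and animal 793 lay within the range of 8 months, at a difference of -1.6 (SE 0.68). Ppara itself differed by 0.01 (SE 0.44). The median was -0.16 without animal 702 and ran from -0.49 without animal 1287 to -0.09 without animal 934.

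Pericentral genes, which beta-catenin switches on around the central vein, were below 0 for 15 of 24. Their list mean was 2.87, 3.02 and 2.96 at 8 months and 2.68, 3.81, 1.38 and 2.83 at 12 months. The 3 animals of 8 months lay close together, while animals 702 and 638 at 12 months were the lowest and the highest of all 7. Glul, glutamine synthetase, stood at 5.54, 5.07 and 5.63 at 8 months and 5.46, 6.63, 3.36 and 5.55 at 12 months, and Cyp2e1, the ethanol-oxidising P450, at 7.35, 7.24 and 7.82 at 8 months and 7.0, 7.24, 5.22 and 6.85 at 12 months. Both were lowest in animal 702. Cyp2e1 differed by -0.89 (SE 0.43), Axin2, a feedback inhibitor of the pathway, by -1.21 (SE 0.55) and Aldh3a2 by -1.27 (SE 0.44). The list's median of -0.20 changed sign without animal 702, and with 1 animal left out it ran from -0.62 without animal 638 to 0.26 without animal 702.

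Lipogenesis genes, which make and store fat, were split, with 15 of 26 measured members above 0 and a median of 0.08. Their differences ran from -1.17 (SE 0.83) for Plin4, a lipid droplet coat protein, to that of Pnpla3. Pnpla3, a lipid droplet protein, stood at -1.5, -3.54 and -3.71 at 8 months and -0.56, 1.05, -1.05 and -1.02 at 12 months, without overlap, at a difference of 2.52 (SE 1.06). Fads2, a fatty acid desaturase, differed by 0.81 (SE 0.37), and Cd36, a fatty acid transporter, by -0.81 (SE 0.40). Plin4 and Cd36 were picked after their values were seen. The median changed sign without animal 1347, 1287 or 638, and its range with 1 animal left out was -0.15 without animal 638 to 0.21 without animal 934. Wild-type livers gave Pnpla3 levels of -6.79 ± 0.25 (SD, n = 2) at 2 months and -2.62 ± 2.67 (SD, n = 3) at 12 months.

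Within the BCL-2 family, 13 of 17 measured members had a difference above 0, with a median of 0.24 and 0 passing. Bcl2 and Bcl2l1, the anti-apoptotic relatives of Mcl1, differed by 0.98 (SE 0.43) and 0.65 (SE 0.32). Bcl2 stood at -2.46, -1.61 and -2.32 at 8 months and -2.21, -0.62, -0.51 and -1.22 at 12 months. Animals 638, 702 and 793 were the 3 highest and animal 1109 lay with the animals of 8 months. Bax, a pore-forming effector, stood at -0.09, -0.18 and 0.29 at 8 months and 0.21, 0.79, 0.80 and 0.54 at 12 months, and its difference was 0.58 (SE 0.23). Bnip3, a mitochondrial protein of hypoxia and mitophagy, was the only member of 17 whose ages did not overlap on the lower side (background 4.48%). It stood at 5.39, 5.18 and 5.4 at 8 months and 4.85, 4.4, 4.71 and 4.54 at 12 months, with a difference of -0.70 (SE 0.22). The BH3-only genes Bbc3, which encodes PUMA, Pmaip1, which encodes NOXA, and Bcl2l11, which encodes BIM, differed by 0.27 (SE 0.46), 0.46 (SE 0.55) and 0.05 (SE 0.44). Those 3 were chosen for their known link to MCL-1, with their values in view. Over the 7 animals left out in turn, the list's median ran from 0.03 without animal 934 to 0.34 without animal 1287.

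Among death receptor and NF-kappaB genes, 17 of 23 were above 0 with a median of 0.17. Nfkb2, a subunit of the noncanonical pathway, stood at -0.53, -0.21 and -0.99 at 8 months and -0.24, 0.13, 0.95 and 0.03 at 12 months and differed by 0.79 (SE 0.29). Rela, the transactivating subunit of the canonical pathway, differed by 0.69 (SE 0.28) and Fasl, the ligand of the death receptor Fas, by -1.24 (SE 0.82). The list's median with 1 animal left out ran from 0.06 without animal 934 to 0.31 without animal 1347. Unfolded protein and amino acid stress genes were above 0 for 19 of 23 with a median of 0.39, and none had an unadjusted p under 0.05. Ddit3, the transcription factor CHOP, stood at -0.85, -1.11 and -1.4 at 8 months and -0.55, -0.50, 0.86 and -0.41 at 12 months, without overlap and highest in animal 702, at a difference of 0.97 (SE 0.54). The stress list's median ran from 0.08 without animal 702 to 0.49 without animal 638.

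DNA replication and repair genes leaned lower at 12 months and mitosis genes did not follow them. S-phase genes, which license and copy DNA, were below 0 for 25 of 27, with a median of -0.47. Cdt1, a licensing factor, stood at 0.51, 1.41 and 3.23 at 8 months and -0.06, -0.67, 0.94 and 1.26 at 12 months, highest by far in animal 934, and differed by -1.35 (SE 0.59). Mcm4, a subunit of the replicative helicase, stood at 2.58, 2.07 and 4.28 at 8 months and 2.3, 0.83, 2.03 and 2.34 at 12 months, also highest in animal 934, at -1.1 (SE 0.54). Leaving out 1 animal gave medians from -0.64 without animal 1347 to -0.0035 without animal 934. The list mean was -0.16, 0.14 and 1.33 at 8 months and -0.22, -0.73, 0.42 and 0.23 at 12 months, against 0.08 ± 0.76 (SD, n = 3) in knockout livers of 2 months.

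DNA damage and repair genes were below 0 for 13 of 15 with a median of -0.57, which ran from -0.78 without animal 1347 to -0.30 without animal 934. Brca2, a gene of homologous recombination repair, stood at -0.88, -0.33 and 0.32 at 8 months and -1.79, -2.07, -1.42 and -0.87 at 12 months. Animals 1347 and 793 were level, the other 3 animals of 12 months lay below every animal of 8 months, with a difference of -1.24 (SE 0.36). Brca1 differed by -0.76 (SE 0.37) and the helicase gene Blm by -0.78 (SE 0.40). The only member of 15 whose ages did not overlap was higher at 12 months (background 1.77% higher and 4.48% lower). It was Ddit4, an inhibitor of mTORC1 that DNA damage and other stresses induce, picked after its values were seen, which stood at 2.99, 2.39 and 2.95 at 8 months and 3.27, 3.96, 3.76 and 3.44 at 12 months and differed by 0.83 (SE 0.58).

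Mitosis genes, by contrast, were above 0 for 25 of 30 with a median of 0.22, and none had an unadjusted p under 0.05. Their mean was -1.32, -0.68 and -2.17 at 8 months and -1.91, -2.29, 0.25 and -0.58 at 12 months, highest in animal 702 and lowest in animals 638 and 934. Animal 934 had the lowest mitosis mean of its age together with the highest S-phase mean of all 7. Plk1, the polo-like kinase of mitotic entry, stood at 0.12, 1.31 and -1.33 at 8 months and -0.20, -0.58, 2.23 and 1.18 at 12 months, and Top2a, the topoisomerase of chromosome condensation, at -3.75, -2.1 and -3.43 at 8 months and -3.87, -3.35, -1.84 and -2.67 at 12 months. Both were highest in animal 702 and their differences were 0.62 (SE 0.85) and 0.16 (SE 0.87). The list's median changed sign without animal 702, to -0.21, and without animal 934, to -0.18, and was 0.65 without animal 1287. Wild-type livers of 12 months had a mitosis mean of -3.46 ± 1.29 (SD, n = 3).

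Fetal and tumor-associated genes stood highest in 1 animal. The list had 15 of 22 members above 0 and a median of 0.32, which changed sign without animal 702 and ran from -0.22 without animal 702 to 0.73 without animal 1109. Afp, alpha-fetoprotein of the fetal liver, stood at -0.82, 0.03 and -0.12 at 8 months and -0.42, 1.01, 2.99 and 1.2 at 12 months. Animals 638, 702 and 793 lay above every animal of 8 months and animal 1109 did not, and the difference was 1.5 (SE 0.64). Tff3, a trefoil peptide, stood at 0.34, 0.96 and -3.13 at 8 months and 3.23, -1.87, 4.33 and 2.32 at 12 months, and varied widely within both ages, at 2.61 (SE 1.42). Gpc3, the oncofetal proteoglycan glypican 3, stood at -3.2, -2.56 and -3.97 at 8 months and -4.29, -3.6, 1.2 and -4.38 at 12 months, high in animal 702 alone. Sox4 differed by 1.16 (SE 0.54), Golm1 by 0.66 (SE 0.73), Igf2 by -0.85 (SE 1.49) and Ly6d by -0.57 (SE 1.02). The log2 summed level of the 5 tumor markers was 3.88 to 5.39 at 8 months and 4.1 to 6.22 at 12 months, with animal 702 highest. The tumors of the same animals had a list mean of 0.53, -0.03 and -1.89 at 8 months and -0.31, -1.0, 1.28 and -0.83 at 12 months, also highest in animal 702. Whether tumor cells were present in the non-tumor piece of animal 702 was not tested.

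Stellate cell and matrix genes, which lay down scar collagen, were below 0 for 18 of 27 and had a median of -0.23. Col1a1 stood at 3.59, 3.79 and 0.48 at 8 months and 2.77, 1.3, 2.95 and 2.02 at 12 months, lowest in animal 934, with a difference of -0.36 (SE 0.78). Lrat, which stores retinol as ester in quiescent stellate cells, stood at 0.76, 0.88 and 0.92 at 8 months and 0.52, 0.19, -1.04 and 0.44 at 12 months without overlap, at a difference of -0.83 (SE 0.44). The direction of the median depended on single animals: it was -0.95 without animal 934, which had the lowest list mean, and turned to 0.11 without animal 1287 and 0.08 without animal 1347. The list means were 0.91, 0.82 and -0.94 at 8 months and 0.32, -0.24, 0.19 and 0.07 at 12 months.

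**Figure D4:**
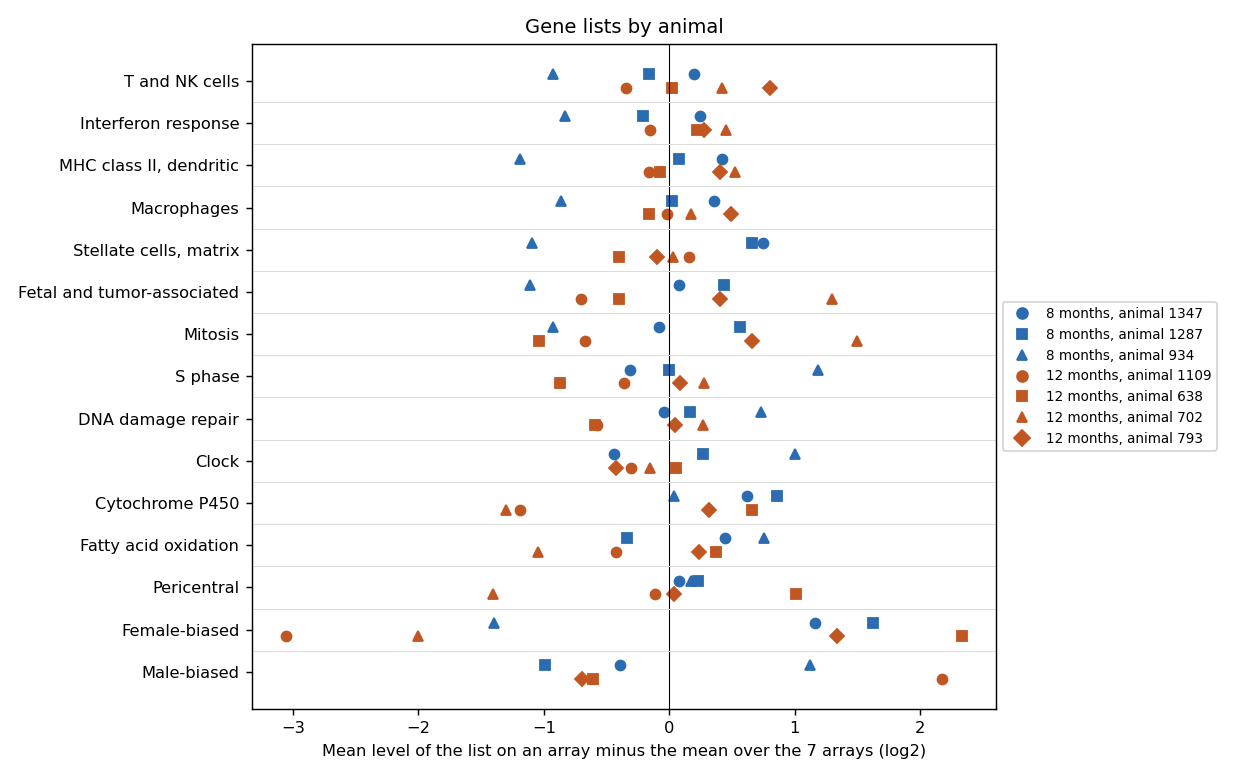
Mean level of 15 gene lists on each array minus the mean of the 7 arrays (log2), with animals of 8 months in blue above and animals of 12 months in orange below in each row. The ages overlap in every list shown. Animal 934 (blue triangle) lies lowest for T and NK cells, interferon, MHC class II, macrophage and matrix genes and highest for S phase, repair and clock genes, and animal 702 (orange triangle) lies highest for mitosis and fetal genes and lowest for pericentral genes.

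Clock genes varied widely between animals. The circadian clock couples CLOCK and ARNTL (BMAL1), which bind E-boxes such as CACGTG, to their repressors PER, CRY and CIART and to output factors such as DBP, TEF and HLF, so that liver levels swing over the day. Of the 20 clock genes, 16 matched a RefSeq promoter entry (GRCm38.p6), and 5 of these held CACGTG, which reads the same on both strands, in the 250 bases before a start. Over all 32851 windows of that length in the table, 6.02% held it. That share is per window, while a gene such as Tef can have more than 1 window, so it is not set against the count of genes. The windows of Ciart, whose level spread widest here, and of Tef, which has 1 of the 4 smallest unadjusted p of the list, are shown 5′ to 3′ with each CACGTG in capitals. The Ciart window lies at chr3:95882229-95882478 on the minus strand and the first Tef window along the chromosome at chr15:81802423-81802672 on the plus strand, and the matches are a description of these letters only.
Ciart: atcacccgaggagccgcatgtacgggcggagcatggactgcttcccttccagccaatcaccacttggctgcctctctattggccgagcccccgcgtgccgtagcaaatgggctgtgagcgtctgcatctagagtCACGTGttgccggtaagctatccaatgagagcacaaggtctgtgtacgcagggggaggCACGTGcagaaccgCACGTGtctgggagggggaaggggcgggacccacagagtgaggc
Tef: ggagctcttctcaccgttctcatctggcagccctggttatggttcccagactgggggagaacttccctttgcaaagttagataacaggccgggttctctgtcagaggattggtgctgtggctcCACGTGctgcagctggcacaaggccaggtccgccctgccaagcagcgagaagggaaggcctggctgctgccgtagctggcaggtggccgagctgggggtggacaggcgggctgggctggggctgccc

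Ciart levels were -7.88, -3.39 and 0.02 at 8 months and -5.61, -5.98, -7.0 and -6.85 at 12 months. The 3 animals of 8 months thus lay far apart, and the probe was well above background in animals 1287 and 934 and in 0 of 4 animals of 12 months. On the mean of all 3 animals of 8 months Ciart was at least 4.06-fold higher there, as bounded by the dimmest signal well above background, with a fitted difference of -2.61 (SE 1.81) and an adjusted p of 0.926 in limma. That bound rested on animal 934: it was at least 1.1-fold without animal 934, at least 3.58-fold without animal 1287 and at least 17.0-fold without animal 1347. Arntl, which oscillates opposite to Ciart, stood at 2.23, 1.39 and -1.4 at 8 months and 2.26, 1.98, 1.46 and 1.94 at 12 months, lowest in animal 934. Dbp stood at 0.75, 4.93 and 5.84 at 8 months and 0.30, 1.24, 4.38 and 1.62 at 12 months, high in animals 1287, 934 and 702 and low in the other 4. Tef stood at 0.81, 2.36 and 3.4 at 8 months and 0.86, 1.07, 1.13 and 1.07 at 12 months, where the 4 animals of 12 months lay close together and animal 1347 lay below them. Hlf stood at 1.47, 1.51 and 1.74 at 8 months and 1.29, 1.29, -0.07 and 0.66 at 12 months, without overlap, at a difference of -0.78 (SE 0.30). Arntl differed by 1.17 (SE 0.78), Tef by -1.16 (SE 0.52), Nr1d2 by -1.29 (SE 0.62) and Per1 by -0.80 (SE 0.66).

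The clock list was below 0 for 13 of 20, with a median of -0.51, 3 lower at an unadjusted p under 0.05 (Hlf, Wee1 and Tef; background 4.3%) and 0 passing. Its median ran from -0.71 without animal 1347 to -0.13 without animal 934. The tumors of the same animals gave Ciart levels of -7.8, -2.79 and 0.37 at 8 months and -6.24, -5.49, -6.54 and -6.54 at 12 months, in the same order of animals at 8 months. Arntl in the tumors was 2.2, 1.2 and -1.56 at 8 months and 2.29, 1.91, 1.24 and 1.82 at 12 months, again lowest in animal 934. Arntl, Ciart, Dbp and Per1 were chosen for mention after their values were seen. The hour of killing is not in the labels, so its part in the clock values was not tested.

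**Figure D5:**
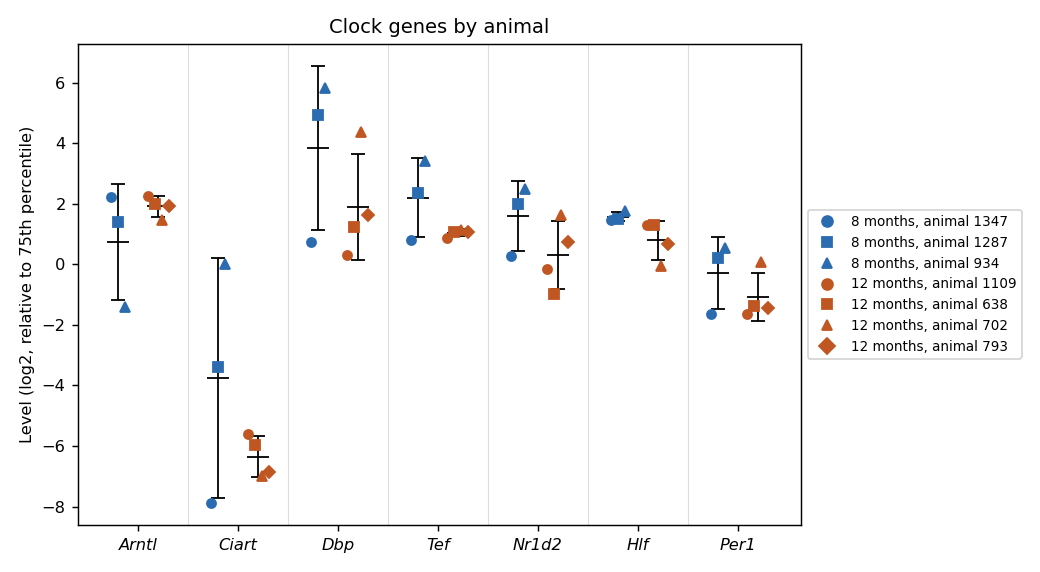
Levels of 7 clock genes (log2, relative to the array's 75th percentile) in the animals of 8 months (blue) and 12 months (orange), 1 symbol per animal, with mean and SD of each age in black. At 8 months animals 1347 and 934 stand at opposite ends for every gene shown. None of the Ciart points of 12 months is well above background.

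Genes that mouse liver expresses by sex split the animals by Y-linked signal. Female-biased genes had a list mean of 3.0, 3.46 and 0.44 at 8 months and -1.22, 4.17, -0.17 and 3.18 at 12 months, low in the 3 animals with Y-linked signal and high in the other 4. Sult2a2, a sulfotransferase of female liver, stood at 5.39, 5.57 and -4.62 at 8 months and -6.49, 6.95, 0.74 and 5.84 at 12 months, and A1bg at 4.98, 4.22 and -7.6 at 8 months and -7.72, 6.14, -7.49 and 4.94 at 12 months. The male-biased mean was 2.93, 2.33 and 4.44 at 8 months and 5.49, 2.71, 2.71 and 2.62 at 12 months, highest in animals 1109 and 934, whereas animal 702, with Y-linked signal, lay with the animals without it. Female-biased genes were below 0 for 18 of 22 with a median difference of -0.56, which was -0.13 with sex as a factor, 0.03 with the Xist level as a covariate and 0.18 without animal 1109. Sult2a2 and A1bg were picked after their values were seen. Of the T and NK genes and P450 genes, the medians with sex as a factor were 0.77 and -0.40, and 0 of 27030 genes passed in that fit.

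Hepatocyte identity genes had medians close to 0. Secreted plasma proteins of hepatocytes had 10 of 22 above 0 and a median of -0.01, acute phase genes 13 of 25 and 0.01, hepatocyte transcription factors 11 of 19 and 0.02, and iron genes 10 of 19 and 0.01. All 4 medians changed sign with 1 animal or another left out, running from -0.11 without animal 934 to 0.04 without animal 1347 for secreted proteins, -0.27 without animal 934 to 0.0043 without animal 638 for acute phase genes, -0.09 without animal 1347 to 0.25 without animal 702 for transcription factors and -0.22 without animal 934 to 0.17 without animal 1347 for iron genes.

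Other lists leaned as far as some of those above. Immediate early genes, which stress and growth signals switch on within minutes, had 15 of 20 members above 0 and a median of 0.46, which changed sign to -0.10 without animal 934. Fosb, a subunit of the AP-1 transcription factor, stood at -4.73, -4.99 and -4.46 at 8 months and -3.39, -3.4, -3.32 and -3.02 at 12 months, without overlap, and differed by 1.44 (SE 0.54). Senescence and secretory phenotype genes had 14 of 18 above 0 and a median of 0.44, and 0.00015 without animal 934. Of these, the cell cycle inhibitor gene Cdkn1a differed by 1.06 (SE 0.60) and the secreted stress factor gene Gdf15 by 1.09 (SE 0.68). Targets of p53 had 12 of 19 above 0 with a median of 0.15, and chemokine and cytokine genes 16 of 21 with 0.25, which turned to -0.07 without animal 934.

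Among lists of other cell types, endothelial genes had 17 of 20 above 0 and a median of 0.24. Cholangiocyte and progenitor genes had 11 of 19 and 0.15, neutrophil genes 6 of 13 and -0.05, and B and plasma cell genes 6 of 13 and -0.01. Erythroid and heme genes had 2 of 8 and -0.27, adipocyte genes 4 of 8 and 0.03, and genes of the acinar pancreas 7 of 8 and 0.52. The log2 summed level of 3 acinar markers was -2.91 to -1.71 at 8 months and -3.62 to 1.92 at 12 months, highest in animal 702. That of 3 adipocyte markers was -3.81 to 0.06 at 8 months and -4.39 to 4.50 at 12 months, highest in animal 638. In each set, 1 of the 3 markers was well above background on all 7 arrays. Whether tissue from outside the liver was present was not tested.

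In metabolism, cholesterol synthesis genes had 16 of 22 above 0 and a median of 0.22, and bile acid genes 7 of 22 and -0.22. Periportal urea and amino acid genes had 10 of 18 and 0.05, and tyrosine and other aromatic amino acid genes 5 of 15 and -0.14. Glycolysis genes had 11 of 21 and 0.09, antioxidant targets of NRF2 8 of 22 and -0.12, glucocorticoid targets 4 of 17 and -0.11, and complement and coagulation genes 7 of 21 and -0.10. Of all 43 lists described, 23 had a median that changed sign with at least 1 of the 7 animals left out, and 0 members of any list passed after adjustment. Others kept their sign there but turned with the processing. With the array median in place of the 75th percentile, aromatic amino acid genes had a median of 0.05, NRF2 targets 0.08 and glucocorticoid targets 0.07. With the mean of all probes, that of glycolysis genes was -0.06.

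The same age difference was then compared with that of the tumors of these 7 animals, with the animal as a block. Of 24581 genes, 0 were higher and 0 lower at an adjusted p under 0.05 (0% each way), with a smallest adjusted p of 0.367 in limma, so no gene was shown to differ with age otherwise in non-tumor tissue than in tumors. At an unadjusted p under 0.05, 155 were higher (0.631%) and 1376 lower (5.6%), a split that turned to 802 higher and 418 lower with normexp and quantile normalization. Those with the smallest unadjusted p were Olfr283, Olfr601 and Olfr686, odorant receptor genes, on the higher side, and Slitrk3, Dpep2 and 1700001O22Rik on the lower side. All lay low, with group means from -7.80 for Olfr686 in non-tumor tissue of 8 months to -3.48 for Olfr601 in tumors of 12 months. Olfr601 was well above background in 1 of 3 non-tumor arrays of 8 months, so its difference mixes measured and background signal. For Cd8a the age difference in non-tumor tissue exceeded that in tumors by 1.52 (SE 0.63) and for Bcl2 by 0.91 (SE 0.29), neither passing (adjusted p 0.793 and 0.71 in limma). Tumor levels of Cd8a were 0.47, -2.95 and -4.31 at 8 months and -2.79, -2.12, -2.21 and -1.71 at 12 months, where the tumor of animal 1347 stood highest. For Tph1 the age difference in non-tumor tissue minus that in tumors was -2.77 (SE 0.47, adjusted p 0.398 in limma), with tumors at -6.36 ± 1.12 (SD, n = 3) at 8 months and -6.31 ± 0.76 (SD, n = 4) at 12 months.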

How the data were processed

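The authors deposited Agilent 1-colour (Cy3) scanner intensities from Feature Extraction, per the file headers, and a table of normalized log2 values; limma is named in the submitters' processing notes without a step. The genome build used in their processing is not given in the sources used here. The processed intensity, already background-subtracted by the scanner software, was put on the log2 scale and each array's 75th percentile subtracted; spots flagged as outliers were left out, so 251 genes lack a value on 1 or more of the 7 arrays. Spots of a probe were averaged and the brightest probe stood for a gene. Of 41174 probes, 59.2% were named through RefSeq transcript accessions; the rest were tested under their own IDs. Probes well above background on at least 2 of 18 arrays were kept.

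The fit (limma 3.58.1, R 4.3.3; lmFit and eBayes, two-sided, Benjamini-Hochberg over all genes) used the 18 arrays without tumor in 6 groups, with 12 residual degrees of freedom. The tumor comparison used 14 arrays with the animal as a fixed block (at least 3 arrays above background). The animal numbers in the titles pair the tissues. Each animal's deviation from its age mean correlated between its 2 arrays at 0.220 to 0.733 over 17639 genes, which are not independent replicates; for animals 1347 (0.220) and 1287 (0.305) another tumor of the same age correlated more (0.268 and 0.329). The scanner files used here hold no mean signal, so normexp used the median signal and local background median, with an offset of 50. The authors' deposited log2 table was tied to the scanner values by rank correlation with the median signal (array medians 6.57 to 6.58 on the 7 arrays); its normalization method stays unknown.

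Named genes were Mcl1, up to 15 genes each way with a symbol, without overlap, detected (well above background) by every array of the higher age and with the smallest unadjusted p (none passed the threshold), up to 4 smallest unadjusted p of each list and a fixed panel. The comparison and the lists were chosen with earlier results of these data known. The fits were also run on simulated arrays with known changes and random noise, without sex or slide effects, and no outcome of these runs is given here. A few genes of the lists count in the list totals but are not reported here.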

Additional observations from a re-analysis of the deposited data

Results flagged for a closer look

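The same 4 animals of 12 months were checked on 83 items (64 genes, 18 list means and the share of detected probes). Of these items, 5 had 1 animal whose gap to the nearest other exceeded Dixon's 95% critical value. Chance alone flags about 1 in 20 independent items. These items share animals and genes and were those the text gives, some chosen after their values were seen. Animal 702 stood apart for Cyp2c54, at -1.76 against 1.09 to 1.33 in the other 3, for the glypican gene Gpc3, at 1.20 against -4.38 to -3.60, and for the stress gene Ddit3, at 0.86 against -0.55 to -0.41. Animal 638 stood apart for Cage1, at -7.49 against -6.31 to -6.18. Cage1 was well above background in only 1 of these 4 animals, so that gap lies largely within background signal. Animal 1109 stood apart for the mean of male-biased genes, at 5.49 against 2.62 to 2.71.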

How the results depend on the processing

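Over the 21 alternatives, 0 genes passed between 12 and 8 months in 20 and 1 gene in the fit without animal 1347 of 8 months; leaving out 1 animal at a time gave 0 to 1 genes. That gene was Tnfsf12, a TNF family ligand named after its values were seen: it was lower at 12 months by -3.21 (SE 0.38, adjusted p 0.0306 in limma; 0.0306 to 0.919 over the 7 such fits), against -2.34 (SE 0.54, adjusted p 0.908) with all animals. It was well above background in 2 of 3 animals of 8 months and 0 of 4 of 12 months, with levels of -6.72, -3.78 and -4.44 in animals 1347, 1287 and 934. It was at least 1.74-fold higher at 8 months, at least 1.15-fold without animal 1287, at least 3.19-fold without animal 1347 and 1.45- to 2.00-fold without any other animal. Counts at an unadjusted p under 0.05 were lowest with the slide as a random block, at 162 higher and 894 lower. The most higher genes came with normexp and quantile normalization (1001, with 1070 lower). The most lower genes came with scan day as a block (2222, with 340 higher). All 7 arrays were scanned on the same day, so the scan day block left their differences unchanged and altered only the errors. Of 43 list medians, 23 changed sign with at least 1 of the 7 animals left out. Those of the aromatic amino acid, NRF2, glucocorticoid and glycolysis lists kept their sign there but changed it with another scaling or probe summary. No paired analysis was possible between the ages because no animal was sampled at both; in the tumor comparison, 0 genes passed with the animal as a block and 0 without the replicate block. A slide block could be fitted only as random, since no slide held both ages, and it does not separate age from slide. The number of arrays and signal near background limit what could be detected.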
